A study of Mus musculus with 4 samples.

Results

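The genes described here are a list of 39 type I interferon response genes, named for what they are known for by a rule that used no measured value, though with earlier results of these data in view, and 37 of them were measured among the 31253 gene rows of the deposited single-cell matrices. The other 2, Mx1 and Mx2, were not analysed here. Live CD45+ cells, the leukocytes, were sorted from tumor-bearing brain hemispheres of 8 mice on day 14 after orthotopic implantation of CT2a, a murine glioma line, and profiled by droplet single-cell RNA sequencing of 3′ ends. 4 mice were wildtype (WT) and 4 were CaMKK2-/- (CaMKK2 KO), a germline deletion of the calcium-responsive kinase CaMKK2 on a C57BL/6 background, so that every cell of a CaMKK2 KO host carried it and the effect of any one cell type could not be separated. Both genotypes bore the same tumor and received no further agent. The study describes age- and sex-matched adult females for its experiments in general, and an age for these 8 mice in particular was not given in the sources used here. Each mouse's cells were labelled with its own antibody hashtag, and equal parts of the 4 mice of 1 genotype shared a capture channel, which made the mouse the replicate, with n = 4 per genotype. Genotype and capture channel cannot be told apart.

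Type I interferons are secreted by cells that sense viral or self nucleic acid, and they bind a receptor of the chains IFNAR1 and IFNAR2. Through the receptor's kinases JAK1 and TYK2, STAT2 is phosphorylated and acts with IRF9 in the complex ISGF3, which binds the interferon-stimulated response element (ISRE) in promoters. In tumors this response is known for its part in antigen presentation and T-cell priming, and monocytes and macrophages are among the cells in which it is readily induced. Interferon gamma, which T cells and NK cells make, acts instead through the GAS element, and the targets of both cytokines overlap.

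Promoters of the genes whose levels are followed through the text are printed first, because the response is defined by the ISRE. The 30 members with a window in the RefSeq table (assembly GRCm38.p6), which spans 250 bases before to 50 bases after the start, were searched on both strands for the ISRE core GAAANNGAAA and, separately, the GAS core TTCNNNGAA. The ISRE core was present in 17 of 30 members (56.7%) against 3.99% of 27025 genes with such a window, and the GAS core in 7 of 30 (23.3%) against 9.55%. The 230 bases before the annotated start are given 5′ to 3′ on the gene's own strand, in lower case with matches to the ISRE core on either strand in capitals. They lie at chr19:34640659-34640888 (plus strand), chr19:34583299-34583528 (plus), chr4:156200819-156201048 (minus), chr10:128270268-128270497 (plus) and chr5:120907526-120907755 (minus).
Ifit1: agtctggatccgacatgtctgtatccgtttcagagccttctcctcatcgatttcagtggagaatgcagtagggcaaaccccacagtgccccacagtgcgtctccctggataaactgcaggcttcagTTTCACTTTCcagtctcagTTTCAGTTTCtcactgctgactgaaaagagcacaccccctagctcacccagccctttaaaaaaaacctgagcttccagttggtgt
Ifit3: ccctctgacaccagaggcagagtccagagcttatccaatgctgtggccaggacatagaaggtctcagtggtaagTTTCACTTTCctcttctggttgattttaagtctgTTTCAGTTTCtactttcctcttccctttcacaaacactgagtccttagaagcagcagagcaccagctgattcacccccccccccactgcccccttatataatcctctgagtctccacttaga
Isg15: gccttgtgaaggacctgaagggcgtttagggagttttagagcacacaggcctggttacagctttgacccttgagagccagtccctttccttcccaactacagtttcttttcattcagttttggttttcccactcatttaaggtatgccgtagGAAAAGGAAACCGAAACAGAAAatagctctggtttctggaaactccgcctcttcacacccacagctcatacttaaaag
Stat2: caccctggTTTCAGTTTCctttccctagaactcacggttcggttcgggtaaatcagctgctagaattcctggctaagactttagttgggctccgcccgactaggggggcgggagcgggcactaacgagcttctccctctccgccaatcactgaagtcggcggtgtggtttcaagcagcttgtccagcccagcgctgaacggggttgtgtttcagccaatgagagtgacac
Oas1a: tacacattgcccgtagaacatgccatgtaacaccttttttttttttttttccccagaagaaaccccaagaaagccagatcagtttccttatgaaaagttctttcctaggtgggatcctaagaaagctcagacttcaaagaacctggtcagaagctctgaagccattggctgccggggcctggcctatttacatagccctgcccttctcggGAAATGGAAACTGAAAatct
The matches begin 104 and 85 bases before the start in Ifit1, 156 and 122 in Ifit3, and 222 in Stat2. Isg15 holds 3 overlapping matches, at 78, 72 and 66 bases, and Oas1a holds 2, at 20 and 14. The window of Irf7 holds no match. A match describes the letters only, and is not evidence that a factor was bound in these cells. The 5 measured IFIT genes lie together on chromosome 19, and the 5 OAS family genes on chromosome 5, where Oas1a, Oas2 and Oas3 are 1.82 to 1.98 Mb from Camkk2 itself.

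After quality control 10685 cells remained (5050 WT and 5635 CaMKK2 KO, 1006 to 1665 per mouse, with 11886048 to 20346223 UMIs, the molecules counted, per mouse). Cells were gated by marker genes, none of them a member, into tumor-associated macrophage (TAM)-like, microglia-like, classical monocyte (cMono)-like, conventional dendritic type 2 (DC2)-like, T-like, NK-like and B-like classes, and 6.84% were left ungated. Smaller gates held nonclassical monocytes, other dendritic cells including plasmacytoid ones, neutrophils, and basophils or mast cells. Their member levels are not described here. Levels are in CPM, the usual scaling of a gene's UMIs by all UMIs of its class in that mouse, and 3′ tags need no correction for gene length. Camkk2 stood at 28.1, 29.5, 39 and 27.7 CPM in WT mice 1 to 4 and 14.8, 18.3, 13.3 and 22.6 CPM in CaMKK2 KO mice 1 to 4, lower in all 4 but not absent. Where the deletion lies relative to the sequenced 3′ end was not given in the sources used here, so these reads do not settle the genotype of a cell. Free RNA, taken to have the profile of all cells of the library, was estimated from T-cell genes in myeloid classes and C1q genes in lymphocyte classes. With all UMIs of those genes counted as free RNA, its median was 1.65% to 3.41% of UMIs across classes. The maximum was 8.97%, in microglia-like cells. The 2 channels shared 42 cell barcodes. WT mouse 1 stood apart in its cell numbers: it had the fewest T-like cells (35, against 136 to 323 in the other 7 mice) and 41 cMono-like cells against 109 to 444. The member means below are given with and without it, and most results for single genes with all mice.

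Among the 7 classes described, cMono-like cells, blood-derived cells that become macrophages in tissue, carried the response most strongly and lymphocytes least. The mean of log2(CPM + 1) over the 37 members was highest in cMono-like cells in 7 of 8 mice, the exception being WT mouse 1, where DC2-like cells led. Averaged over mice it was 7.83 ± 0.96 (SD, n = 8) in cMono-like, 7.02 ± 0.71 in DC2-like, 6.93 ± 0.66 in TAM-like, 6.36 ± 0.47 in microglia-like, 5.70 ± 0.42 in T-like, 5.23 ± 0.39 in NK-like and 4.94 ± 1.25 in B-like cells. DC2-like and TAM-like cells changed places between mice, whereas T-like cells ranked 5 in all 8 mice. NK-like and B-like cells exchanged ranks too, with B-like cells rising to rank 4 in CaMKK2 KO mouse 4. The B-like class held 59244 to 421250 UMIs per mouse, and its mean includes members at 0, such as all 5 IFIT genes in WT mouse 1. At this depth a 0 does not show that a gene was absent, so the low B-like mean is uncertain.

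**Figure D1:**
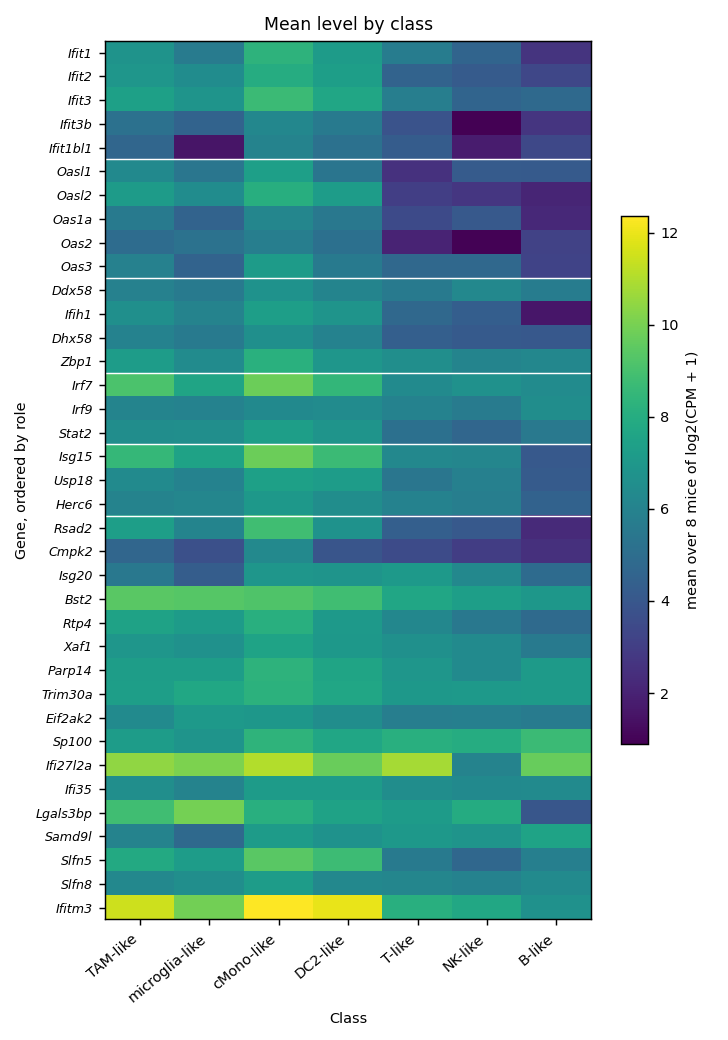
Heat map of the mean over 8 mice of log2(CPM + 1), color scale, for each of the 37 measured members (rows, by role) in each class (columns). Among the classes shown, 31 of the 37 reach their highest mean in cMono-like cells, and Ifi27l2a is bright in T-like but dark in NK-like cells.

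Levels were compared with TAM-like cells in a single edgeR quasi-likelihood fit with the mouse as a block, over 11061 genes, with Benjamini-Hochberg adjusted p under 0.05 as the threshold. In cMono-like cells 35 members were higher (16.9% of all genes were) and 1, Lgals3bp, was lower (40.9%). Rsad2, the antiviral enzyme viperin, averaged 612 ± 469 CPM (SD, n = 4) in WT and 696 ± 219 in CaMKK2 KO cMono-like cells, and 133 ± 42.1 and 212 ± 80.0 in TAM-like cells, a log2 difference between classes of 1.84 (SE 0.29, edgeR adjusted p = 3.1e-07). Cmpk2, the nucleotide kinase encoded beside it, was higher by 1.96 (SE 0.22, edgeR adjusted p = 7.16e-11), and Slfn5, of the Schlafen family, by 1.63 (SE 0.22, edgeR adjusted p = 1.15e-08). Bst2, or tetherin, which holds budding virions at the cell surface, was the member not called in this comparison (log2 difference -0.24, SE 0.16, edgeR adjusted p = 0.188).

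Other classes departed from TAM-like cells in fewer members or in the opposite direction. In microglia-like cells, the resident macrophages of the brain, 4 members were higher (34.3% of all genes) and 15 lower (19.5%). Lgals3bp, a secreted galectin-binding glycoprotein, was highest in microglia-like cells in 8 of 8 mice, at 771 to 1312 CPM in WT and 779 to 1255 CPM in CaMKK2 KO mice (log2 difference 1.17, SE 0.14, edgeR adjusted p = 2.55e-10). DC2-like cells had 10 members higher (16.9%) and 6 lower (25.0%). T-like cells had 4 higher (41.3%) and 28 lower (30.4%), NK-like cells 4 higher (39.1%) and 30 lower (31.6%), and B-like cells 3 higher (25.6%) and 24 lower (29.2%). Sp100, a scaffold of nuclear bodies, and Samd9l, a translation inhibitor, were among those higher in all 3 lymphocyte classes, while Isg20, an exonuclease, was higher in T-like and NK-like cells. Rescaling by TMM factors shifted the median of all genes by -0.21 to 0.19 (log2) in these comparisons, so a difference in level smaller than that is relative to the scaling.

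Ifi27l2a, a small mitochondrial membrane protein gene, differed between T-like and NK-like cells. In T-like cells it was present at 206, 1650, 1993 and 1562 CPM in WT mice 1 to 4 and at 3047, 3275, 2811 and 3768 CPM in CaMKK2 KO mice 1 to 4. In NK-like cells of the same mice it was 21.9, 54.3, 45.4 and 48.9 CPM and 129, 102, 85.6 and 103 CPM. No NK-like value reached the lowest T-like value. Against TAM-like cells the log2 difference was 0.44 (SE 0.16, edgeR adjusted p = 0.0110) in T-like and -4.43 (SE 0.19, edgeR adjusted p = 9.1e-29) in NK-like cells.

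These genes varied between mice in a pattern that recurred across classes. In TAM-like cells all 37 members were lowest in WT mouse 1 (15.1% of all genes were) and all 37 were highest in CaMKK2 KO mouse 4 (17.1%). In cMono-like cells 37 of 37 were lowest in WT mouse 1 (24.4%) and 18 highest in CaMKK2 KO mouse 4 (11.4%). The same mouse held the lowest value of 22 of 30 tested members in microglia-like cells (8.81%), 25 of 35 in DC2-like cells (23.1%), 21 of 33 in T-like cells (35.3%), 31 of 32 in NK-like cells (23.1%) and 11 of 12 in B-like cells (25.2%). Over all 37 members in B-like cells, tested or not, it was 20. The cMono-like cells of WT mouse 1 differed in makeup as well: their 7 neutrophil markers summed to 2569 CPM against 120 to 352 CPM in the other mice, with none at 0, and their 7 NK markers to 4.19 CPM against 39.02 to 105 CPM. Its part in the result was not tested. CaMKK2 KO mouse 4 held the highest of 0 in microglia-like cells (10.8%), 26 in DC2-like cells (21.7%), 29 in T-like cells (20.3%), 21 in NK-like cells (26.3%) and 12 of 12 in B-like cells (18.0%). The member mean in TAM-like cells was 5.53, 6.96, 7.14 and 6.96 (log2) in WT mice 1 to 4 and 7.16, 7.24, 6.60 and 7.81 in CaMKK2 KO mice 1 to 4, so that WT mouse 1 lay below all others and CaMKK2 KO mouse 3 below 3 of the 4 WT mice.

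**Figure D2:**
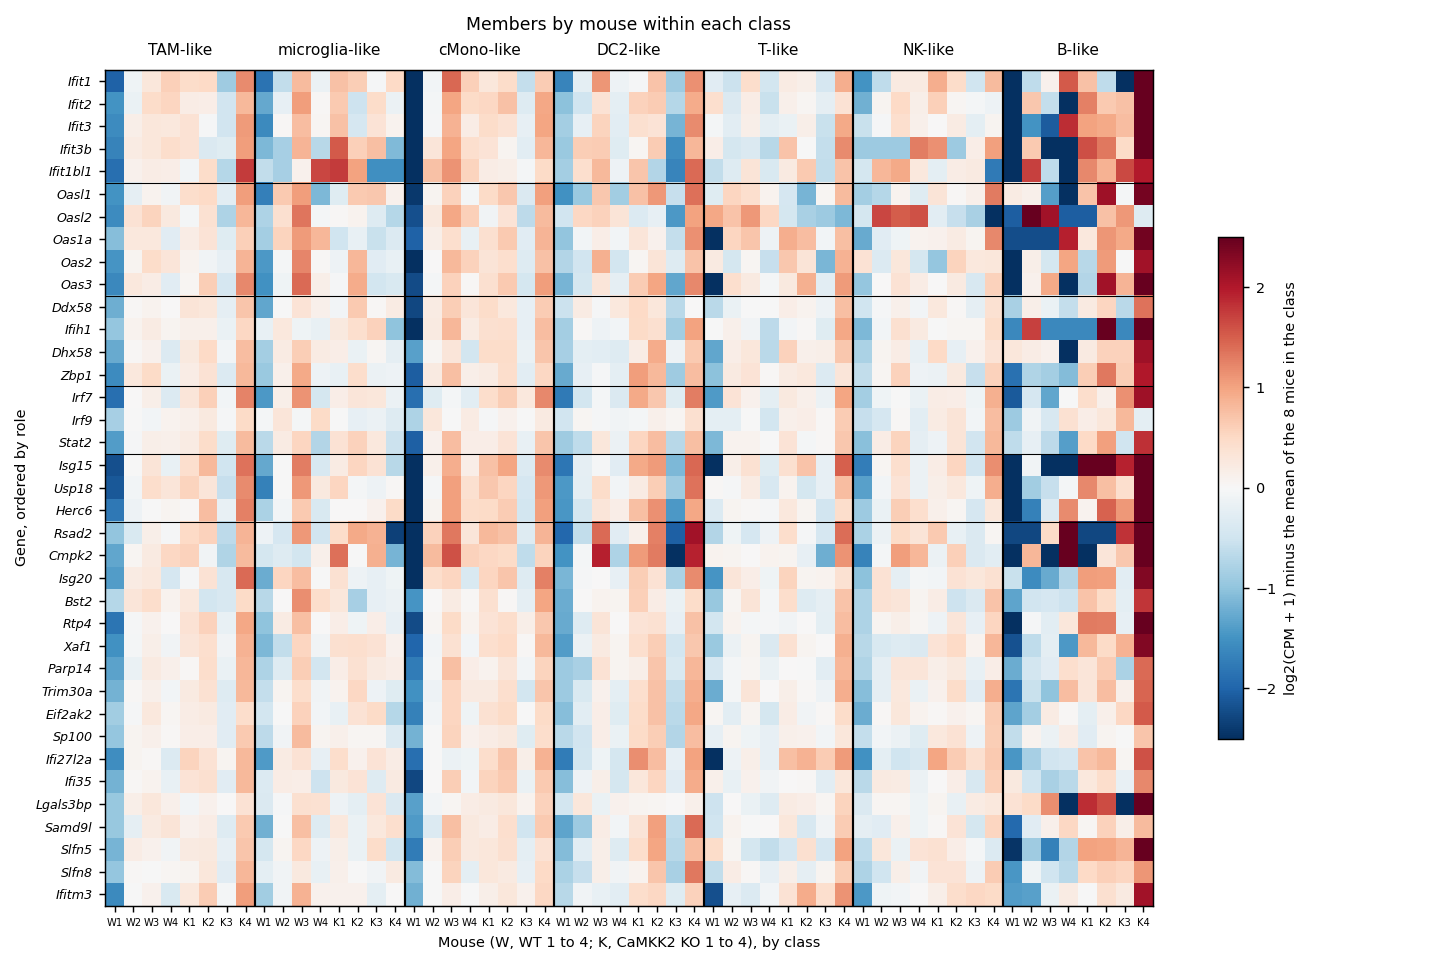
Heat map of log2(CPM + 1) minus the mean of the 8 mice in the class (color scale, clipped at the ends of the bar) for the 37 members (rows, by role) in WT mice 1 to 4 (W1 to W4) and CaMKK2 KO mice 1 to 4 (K1 to K4) of each class. The columns of WT mouse 1 are blue and those of CaMKK2 KO mouse 4 red across most classes, microglia-like cells being the exception for the latter.

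The difference between genotypes in the member mean, CaMKK2 KO minus WT, is given next with and without these mice. WT mouse 1 and CaMKK2 KO mouse 4 were picked as the lowest and highest for these same genes in TAM-like cells. Leaving them out therefore lowers the difference by construction, except in microglia-like cells. There CaMKK2 KO mouse 4 had the lowest CaMKK2 KO mean (6.07), and leaving it out raises the difference. In TAM-like cells it was 0.56 (log2), 0.18 without WT mouse 1 and -0.02 without both WT mouse 1 and CaMKK2 KO mouse 4. The 3 corresponding values were 0.67, 0.03 and -0.11 in cMono-like cells, 0.14, -0.14 and -0.01 in microglia-like cells, 0.60, 0.34 and 0.11 in DC2-like cells, 0.41, 0.24 and 0.06 in T-like cells, and 0.31, 0.07 and -0.02 in NK-like cells. B-like cells had 1.81, 1.44 and 0.99. These B-like values cover all 37 members, of which 12 had enough UMIs there to be tested. All 5 IFIT genes were at 0 in B-like cells of WT mouse 1. How much of the B-like difference comes from genes at or near 0 was not tested. Leaving out CaMKK2 KO mouse 3 instead gave 0.76 in TAM-like, 0.85 in cMono-like, 0.14 in microglia-like, 0.97 in DC2-like, 0.55 in T-like, 0.40 in NK-like and 2.04 in B-like cells. It was the lowest CaMKK2 KO mouse in every class but microglia-like cells, so leaving it out there raises the difference by construction.

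In TAM-like cells the members' levels were on the whole higher in CaMKK2 KO mice but the genotypes overlapped for each of them, and none passed the test. Of 37 members tested with edgeR's quasi-likelihood test, 0 were called at an adjusted p under 0.05 (2.21% of all genes were), 5 (13.5%) reached an unadjusted p under 0.05, all higher in CaMKK2 KO, where 7.11% of all genes did so higher and 14.3% lower, and DESeq2, TMM scaling and limma also called 0. In no member did all 4 CaMKK2 KO mice lie above all 4 WT mice (4.26% of all genes). The fold change was positive in 36 of 37 members against 36.3% of all genes, with a median of 0.50 (log2) against -0.08. Without WT mouse 1 the CaMKK2 KO mean was above the WT mean in 30 members instead of 36.

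The IFIT genes, whose products bind foreign RNA, overlapped widely between genotypes in TAM-like cells. Ifit1 was 25.9, 100, 131 and 163 CPM in WT mice 1 to 4 and 148, 153, 58.2 and 245 CPM in CaMKK2 KO mice 1 to 4. Ifit3 was 56.7, 190, 208 and 206 CPM against 219, 167, 122 and 357 CPM. Apart from WT mouse 1, WT values fell inside the CaMKK2 KO range for both genes. Their log2 fold changes were 0.51 (SE 0.53, edgeR adjusted p = 0.602) and 0.38 (SE 0.42, edgeR adjusted p = 0.631). Leaving out 1 mouse at a time they ranged from 0.19 to 0.82 and from 0.04 to 0.58.

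Among the transcription factors, Irf7, which amplifies the response, had one of the larger differences in TAM-like cells. It was 147, 549, 604 and 432 CPM in WT mice and 672, 824, 523 and 1291 CPM in CaMKK2 KO mice (log2 fold change 0.93, SE 0.41, edgeR adjusted p = 0.228). CaMKK2 KO mouse 3 fell among the WT values. Stat2, the subunit particular to the type I and III pathways, was 33.4, 87.8, 98.1 and 97.0 CPM in WT and 103, 122, 72.0 and 156 CPM in CaMKK2 KO mice, again with only CaMKK2 KO mouse 3 inside the WT range (0.51, SE 0.33, edgeR adjusted p = 0.402). Irf9, which completes ISGF3, differed by 0.37 (SE 0.19, edgeR adjusted p = 0.302).

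Isg15 encodes a ubiquitin-like modifier that is conjugated to proteins and also secreted. It was 79.8, 367, 466 and 326 CPM in TAM-like cells of WT mice 1 to 4 and 497, 651, 261 and 952 CPM in CaMKK2 KO mice 1 to 4. CaMKK2 KO mice 1, 2 and 4 were above all WT mice and mouse 3 was below 3 of them (log2 fold change 0.93, SE 0.50, edgeR adjusted p = 0.318). Usp18, the protease that removes ISG15 and restrains the receptor, differed by 0.58 (SE 0.51, edgeR adjusted p = 0.540), and Herc6, its ligase in mice, by 0.88 (SE 0.42, edgeR adjusted p = 0.265). Oas1a, a synthetase of the 2′-5′ oligoadenylates that activate RNase L, was 22.4, 57.4, 58.0 and 39.1 CPM against 54.5, 61.2, 38.7 and 72.9 CPM (0.36, SE 0.29, edgeR adjusted p = 0.510). The sensors Ddx58 (RIG-I), Ifih1 (MDA5), Dhx58 (LGP2) and Zbp1 had fold changes of 0.26 to 0.68 and none was called.

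Ifi27l2a and Ifitm3, the latter a membrane protein that blocks viral entry, were the most abundant members in TAM-like cells. Ifi27l2a was 482, 1471, 1433 and 1115 CPM in WT and 2082, 1810, 1466 and 2456 CPM in CaMKK2 KO mice (0.80, SE 0.31, edgeR adjusted p = 0.188). CaMKK2 KO mouse 3 lay just below WT mouse 2. Ifitm3 was 957, 2880, 3106 and 2208 CPM against 3463, 4486, 2774 and 5943 CPM (0.86, SE 0.35, edgeR adjusted p = 0.199), again with CaMKK2 KO mouse 3 inside the WT range. Bst2 was the member with a negative fold change, -0.06. The summed level of 8 cMono markers in TAM-like cells moved with these values: it was 1142, 1890, 1460 and 1356 CPM in WT and 2191, 3092, 1763 and 4671 CPM in CaMKK2 KO mice, with none of the 8 at 0, while that of the 11 TAM markers was 19329 to 20385 CPM in WT and 14356 to 18663 CPM in CaMKK2 KO mice. Their part in the result was not tested.

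**Figure D3:**
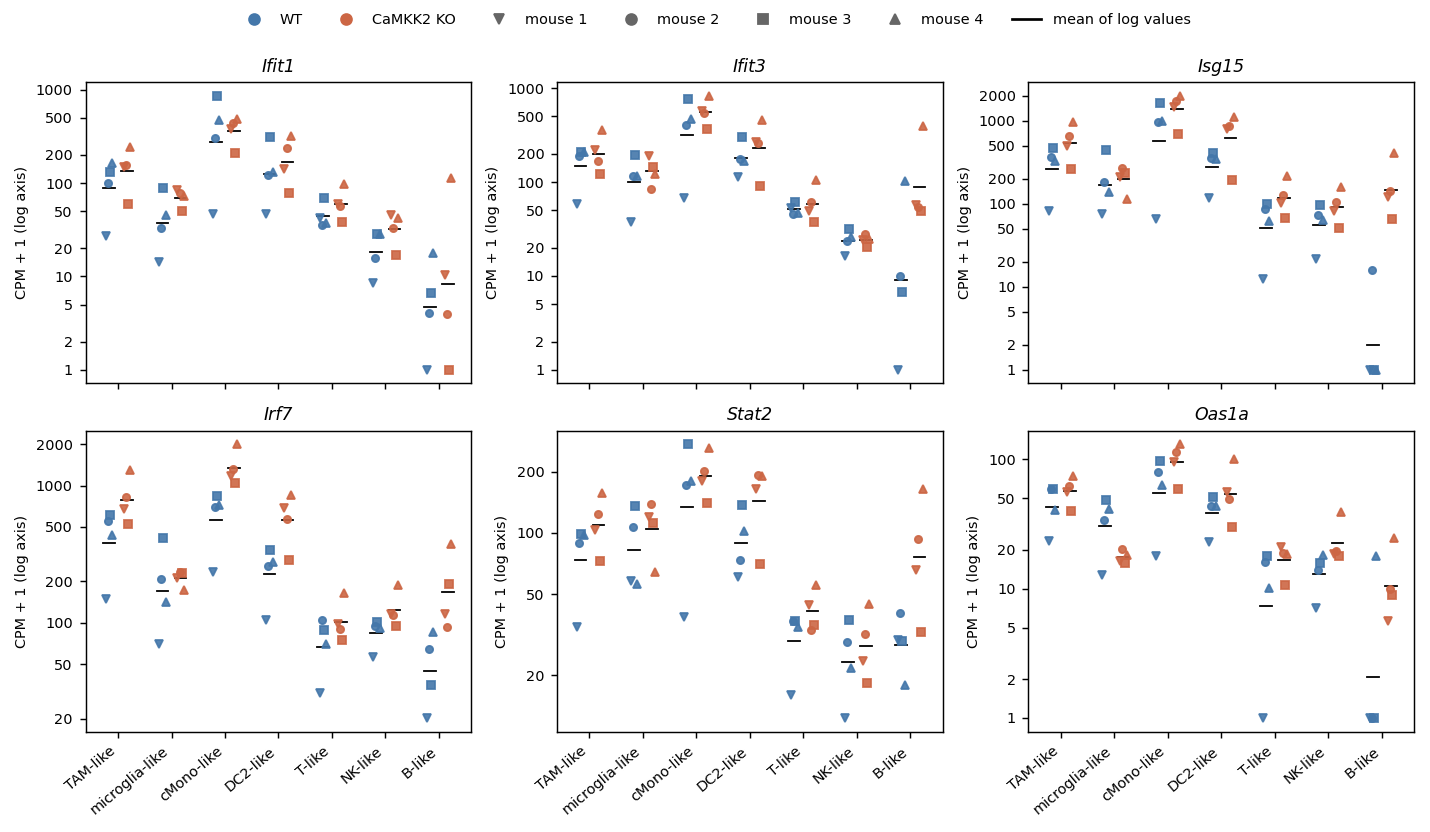
CPM + 1 on a log axis of Ifit1, Ifit3, Isg15, Irf7, Stat2 and Oas1a in each class, 1 point per mouse (blue, WT; orange, CaMKK2 KO; the marker shape gives the mouse number) with a bar at the mean of the log values. The downward triangle of WT mouse 1 is lowest in most panels, the genotypes overlap in TAM-like cells, and Isg15 in B-like cells is at 0 CPM in 3 WT mice.

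In cMono-like cells Irf7 and Ifi27l2a were the members in which all CaMKK2 KO mice exceeded all WT mice, 2 of 37 against 5.30% of all genes. Irf7 was 235, 698, 836 and 721 CPM in WT mice 1 to 4 and 1170, 1325, 1036 and 2001 CPM in CaMKK2 KO mice 1 to 4 (log2 fold change 1.14, SE 0.34, edgeR adjusted p = 0.131). Ifi27l2a was 564, 2065, 1898 and 1937 CPM against 2814, 3373, 2323 and 3828 CPM (0.93, SE 0.34, edgeR adjusted p = 0.206). edgeR's quasi-likelihood test called 0 of 37 members (1.94% of all genes), and DESeq2 called 1, Irf7. In the edgeR test 2 members (5.41%) had an unadjusted p under 0.05, both higher in CaMKK2 KO, where 7.73% of all genes did so. Isg15, by contrast, was 64.9, 951, 1634 and 981 CPM in WT and 1451, 1742, 687 and 1973 CPM in CaMKK2 KO mice, with the 3 other WT mice inside the CaMKK2 KO range and WT mouse 1 far below it (0.68, SE 0.65, edgeR adjusted p = 0.658). Rsad2 was 23.0, 690, 1163 and 572 CPM against 811, 769, 370 and 833 CPM, and Cmpk2 4.19, 134, 233 and 115 CPM against 110, 107, 48.6 and 113 CPM, so that the latter was higher in WT mice 2 to 4 than in every CaMKK2 KO mouse.

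Microglia-like and DC2-like cells, the 2 smallest myeloid classes (24 to 156 and 12 to 63 cells per mouse), gave no call either. In microglia-like cells 0 of 30 tested members were called by edgeR's quasi-likelihood test (1.23% of all genes), and DESeq2, TMM scaling and limma also called 0. In the edgeR test 1 member (3.33%) had an unadjusted p under 0.05, higher in CaMKK2 KO, as did 4.21% of all genes in that direction. In 0 members did all CaMKK2 KO mice exceed all WT mice (2.56%). Isg15 was 74.4, 179, 442 and 136 CPM in WT and 209, 265, 232 and 112 CPM in CaMKK2 KO microglia-like cells, with WT mouse 3 the highest and CaMKK2 KO mouse 4 among the lowest. In DC2-like cells 0 of 35 were called (0.922%), 11 (31.4%) had an unadjusted p under 0.05 and were higher in CaMKK2 KO, as did 10.5% of all genes in that direction, and DESeq2 called 2, Ifi27l2a and Irf7. Dhx58 was the member in which the genotypes did not overlap, at 35.0, 53.1, 52.3 and 50.3 CPM against 71.2, 121, 57.6 and 99.7 CPM. Of all genes 5.79% were higher in all CaMKK2 KO than in all WT mice and 4.12% lower. Without CaMKK2 KO mouse 3 the count of called members in DC2-like cells rose from 0 to 17. That mouse had the lowest CaMKK2 KO member mean there (6.21), so leaving it out raises differences by construction. The share of all genes called in that setting is not given here, so the rise is not a result particular to the members. The 8 cMono markers in DC2-like cells, none at 0, summed to 691, 1273, 1344 and 1726 CPM in WT and 3118, 3527, 1717 and 3367 CPM in CaMKK2 KO mice, with CaMKK2 KO mouse 3 again low. Their part in the result was not tested.

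T-like cells had 1 called member of 33 tested, Ifitm3, which was higher in CaMKK2 KO mice (1.11% of all genes were called higher). It was 59.9, 241, 222 and 265 CPM in WT mice 1 to 4 and 357, 530, 376 and 609 CPM in CaMKK2 KO mice 1 to 4, with no overlap (log2 fold change 1.13, SE 0.27, edgeR adjusted p = 0.0498). Without WT mouse 1 the fold change was 0.94 (edgeR adjusted p = 0.0192). The adjusted p lay just under the threshold and was above it with TMM scaling (0.0541), in DESeq2 (0.149), in limma on mean CPM (0.101) and after subtraction of free RNA (0.158), and no member was then called. Nor was any called when any of CaMKK2 KO mice 1, 2 or 4 or WT mice 2, 3 or 4 was left out, whereas 2, Ifitm3 and Ifi27l2a, were called without WT mouse 1. Irf9, Ifi27l2a and Lgals3bp, with Ifitm3, made 4 tested members higher in all CaMKK2 KO than in all WT mice. Of all genes 8.87% were higher in this way and 3.09% lower. Ifi27l2a, whose values are given above, differed by 1.22 (SE 0.40, edgeR adjusted p = 0.133).

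The other followed genes overlapped between genotypes in T-like cells. Isg15 was 11.2, 84.4, 99.1 and 61.1 CPM in WT and 101, 125, 65.8 and 216 CPM in CaMKK2 KO mice (0.70, edgeR adjusted p = 0.315). Irf7 was 29.9, 104, 88.1 and 68.5 CPM against 96.3, 89.4, 73.4 and 163 CPM, and Stat2 15.0, 35.9, 35.8 and 33.4 CPM against 43.1, 32.5, 34.3 and 54.3 CPM. Outside WT mouse 1 and CaMKK2 KO mouse 4, the values of these 2 genes were alike in range. Ifit1 was 41.2, 34.4, 68.8 and 36.4 CPM against 58.7, 55.7, 37.7 and 95.8 CPM, and Ifit3 52.4, 44.9, 60.1 and 45.5 CPM against 48.2, 59.7, 36.5 and 105 CPM, and for neither was WT mouse 1 the lowest. Oas1a was listed at 0 UMIs in the 35 T-like cells of WT mouse 1 and at 9.10 to 17 CPM in the other WT mice, against 9.56 to 19.9 CPM. The makeup of the T-like class differed too: the summed level of the 2 CD4 T markers was 44.2 to 64.4 CPM in WT and 106 to 287 CPM in CaMKK2 KO mice, and neither gene was at 0. Its part in the result was not tested.

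NK-like cells had 2 called members of 32 tested, both higher in CaMKK2 KO mice (2.08% of all genes were called higher). Ifi27l2a, at the NK-like values given above, differed by 1.26 (SE 0.21, edgeR adjusted p = 0.00369). Xaf1, a proapoptotic binder of XIAP, was 49.9, 62.2, 65.0 and 63.0 CPM in WT and 103, 116, 86.7 and 146 CPM in CaMKK2 KO mice (0.87, SE 0.15, edgeR adjusted p = 0.00728). Neither gene overlapped between genotypes, nor did Ifitm3, which made 3 members higher in all CaMKK2 KO than in all WT mice. Of all genes 7.99% were higher in this way and 3.24% lower. Both calls held with DESeq2, with TMM scaling, with limma, and when any 1 mouse or both WT mouse 1 and CaMKK2 KO mouse 4 were left out, unlike the calls in T-like and B-like cells. Without CaMKK2 KO mouse 3, the lowest CaMKK2 KO mouse for the member mean here too, the count of called members rose to 6. The share of all genes called without that mouse is not given here. Ifi27l2a was nevertheless low in NK-like cells, with 20.5% to 22.7% of CaMKK2 KO and 6.73% to 15.7% of WT cells holding a UMI after thinning to 3000 UMIs (35.6% to 45.9% and 19.2% to 29.7% unthinned). Cells with fewer than 3000 UMIs were left out of the thinned shares. C1qb, a macrophage gene that NK cells lack, was seen in 10.1% to 14.6% of thinned CaMKK2 KO and 19.2% to 25.9% of thinned WT NK-like cells, and so at a higher share in WT. The 8 cMono markers in NK-like cells went the other way, at 762 to 1058 CPM in WT and 1363 to 1502 CPM in CaMKK2 KO mice, and the 8 ncMono (nonclassical monocyte) markers at 291 to 409 CPM and 477 to 659 CPM, none of either list being at 0. Their part in the result was not tested.

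In B-like cells, of which there were 14 to 87 per mouse, the fold changes were larger than elsewhere, with a median over the tested members of 1.71 (log2) against 0.03 over all genes. The corresponding medians were 0.31 against 0.07 in T-like, 0.25 against 0.08 in NK-like, 0.30 against -0.01 in cMono-like, 0.67 against 0.06 in DC2-like and 0.10 against -0.11 in microglia-like cells. In B-like cells 12 of the 37 passed the filter of 200 UMIs, which a gene present in CaMKK2 KO cells alone can pass, so the 12 are no fair sample of the list. Of these, 4 were called, all higher in CaMKK2 KO mice (2.10% of all genes were called higher). Isg15 counted 0, 5, 0 and 0 UMIs in WT mice 1 to 4 and 26, 47, 8 and 172 in CaMKK2 KO mice 1 to 4, or 0, 15.1, 0 and 0 CPM against 120, 141, 63.4 and 408 CPM (log2 fold change 4.67, SE 0.83, edgeR adjusted p = 0.0223). Slfn5 was 9.61, 30.2, 17.1 and 33.8 CPM against 116, 114, 103 and 444 CPM (3.12, SE 0.64, edgeR adjusted p = 0.0230). With 3 WT mice at 0, the size of the fitted fold of Isg15 depends on the prior count. In both genes every CaMKK2 KO mouse exceeded every WT mouse, and CaMKK2 KO mouse 4 was far above the other 3.

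Zbp1, a sensor of Z-form nucleic acid, was 19.2, 42.3, 39.9 and 33.8 CPM in WT B-like cells and 111, 183, 111 and 292 CPM in CaMKK2 KO (2.31, SE 0.40, edgeR adjusted p = 0.0223). Ifi27l2a was 298, 456, 587 and 608 CPM against 1342, 1431, 841 and 2443 CPM (1.66, SE 0.30, edgeR adjusted p = 0.0223). With Irf7 and Bst2, 6 tested members were higher in all CaMKK2 KO than in all WT mice. Of all genes 6.66% were higher in this way and 6.11% lower. Irf7 was 19.2, 63.4, 34.2 and 84.4 CPM against 116, 92.8, 190 and 375 CPM (2.0, SE 0.52, edgeR adjusted p = 0.0558), and Bst2 48.0, 87.6, 91.2 and 84.4 CPM against 199, 171, 103 and 423 CPM (1.55, SE 0.41, edgeR adjusted p = 0.0558).

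The B-like calls rested on few cells and changed with the mice included. No member was called when any of WT mice 2, 3 or 4 or of CaMKK2 KO mice 2 or 4 was left out, 8 were called without CaMKK2 KO mouse 3, 3 without WT mouse 1, and 1, Ifi27l2a, without both WT mouse 1 and CaMKK2 KO mouse 4. Shares of all genes called in these settings are not given here. With 1 mouse left out at a time the log2 fold changes ranged from 1.33 to 1.85 for Ifi27l2a, 2.96 to 3.49 for Slfn5, 2.17 to 2.49 for Zbp1 and 4.27 to 8.34 for Isg15, the last highest without WT mouse 2, which held all 5 WT UMIs. After thinning to 3000 UMIs, Isg15 was seen in 0% to 2.74% of WT and 14.8% to 44.4% of CaMKK2 KO B-like cells (0% to 5.75% and 17.9% to 58.9% unthinned), while the macrophage gene C1qb, which B cells lack, was seen in 31.4% to 44.4% of thinned WT and 8.33% to 20.8% of thinned CaMKK2 KO cells, the reverse order. Thinning left out 10 of 28, 14 of 87, 5 of 40 and 2 of 14 B-like cells in WT mice 1 to 4. In CaMKK2 KO mice 1 to 4 it left out 1 of 38, 0 of 53, 1 of 28 and 1 of 73, so the genotypes lost unequal shares. The summed level of the 11 TAM markers in B-like cells was 342 to 557 CPM in WT and 135 to 225 CPM in CaMKK2 KO mice with no gene at 0, and that of the 8 cMono markers, of which 1 was at 0, was 672 to 1470 CPM and 1314 to 1887 CPM. Their part in the result was not tested.

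**Figure D4:**
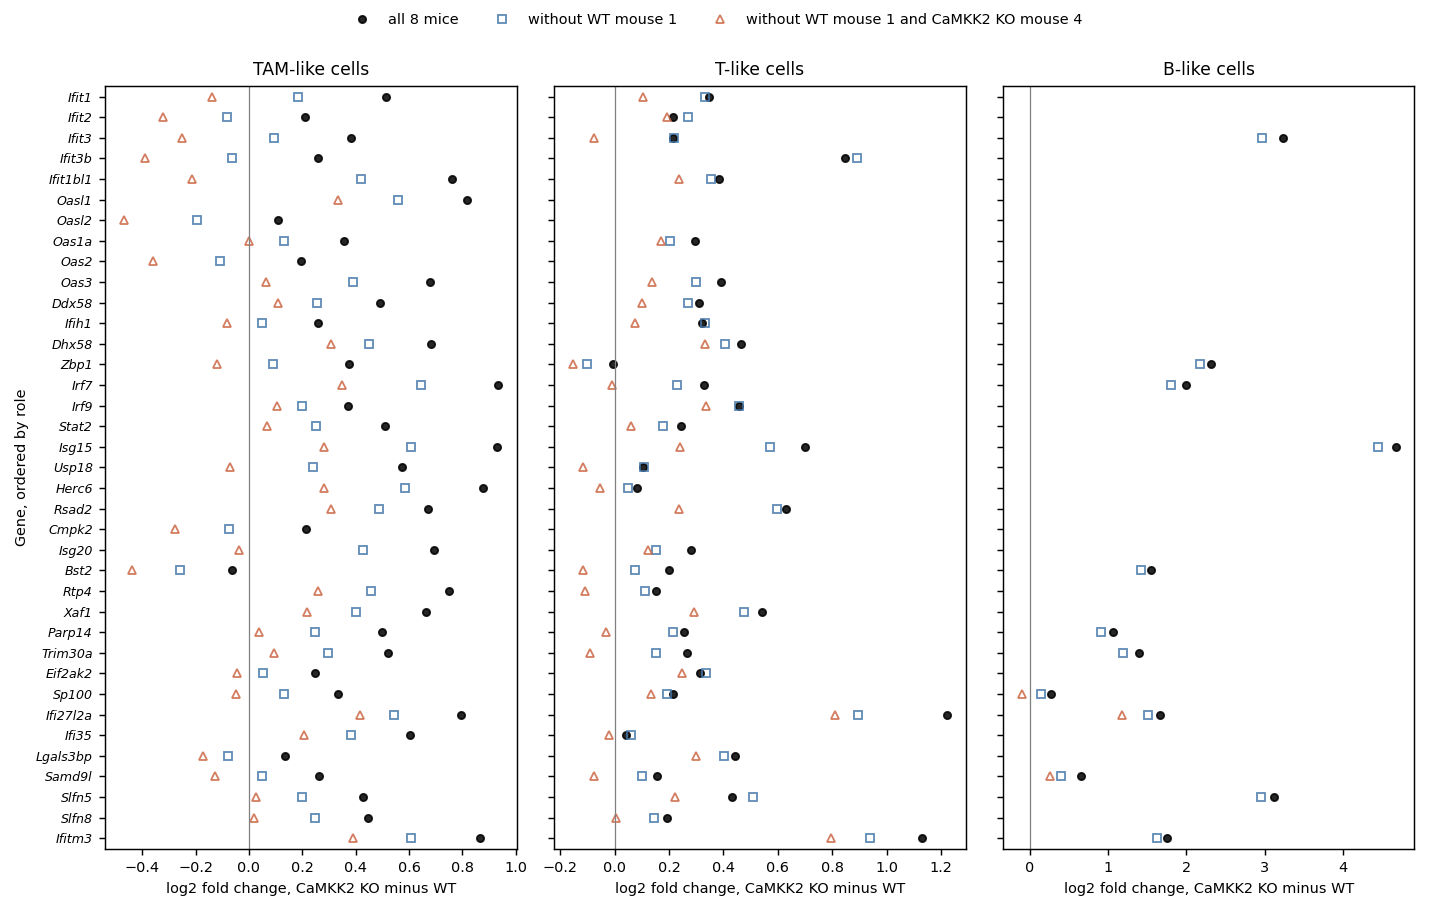
Log2 fold change, CaMKK2 KO minus WT, of each member tested in TAM-like, T-like and B-like cells with all 8 mice (black circles), without WT mouse 1 (blue squares) and without WT mouse 1 and CaMKK2 KO mouse 4 (orange triangles). In TAM-like cells the triangles gather around 0. In B-like cells only 3 members keep a triangle, since the others fell under the filter of 200 UMIs with 6 mice.

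Whether the genotype difference itself varied between classes was tested as a class by genotype term against TAM-like cells, with the mouse as a block and 37 members tested. In B-like cells 4 members differed more than in TAM-like cells (0.542% of all genes in that direction). These were Isg15 (log2 difference 3.89, edgeR adjusted p = 0.0159, ranging from 3.23 without WT mouse 3 to 10.85 without WT mouse 2), Slfn5 (2.71, edgeR adjusted p = 0.0189), Zbp1 (1.97, edgeR adjusted p = 0.00531) and Bst2 (1.66, edgeR adjusted p = 0.00124). In NK-like cells the term was negative for 1 member, Oasl2, an OAS-like protein gene (-2.22, SE 0.50, edgeR adjusted p = 0.00812; 0.551% of all genes in that direction). Its NK-like counts were 5, 35, 25 and 42 UMIs in WT and 7, 7, 10 and 0 in CaMKK2 KO mice, lower in CaMKK2 KO although WT mouse 1 lay among the CaMKK2 KO counts, whereas in TAM-like cells it was 47.7, 185, 212 and 169 CPM against 139, 187, 83.6 and 255 CPM, with a genotype fold change of 0.11 (log2). In T-like cells, too, it stood at 10.8 to 16.5 CPM in WT and 2.76 to 5.07 CPM in CaMKK2 KO mice, without overlap, but under the filter of 200 UMIs. Oasl2 lies on chromosome 5, 7.79 to 7.82 Mb from Camkk2 together with Oasl1. Without CaMKK2 KO mouse 2 its difference was -2.11 (edgeR adjusted p = 0.0950) and not called. Without CaMKK2 KO mouse 4, WT mouse 2 or WT mouse 3, Bst2 alone of the 4 B-like calls was left in each case, and without CaMKK2 KO mouse 3 microglia-like cells gained 4 members with a negative term. Shares of all genes called with these mice left out are not given here. In the remaining classes edgeR's quasi-likelihood test called 0 members, against 0.714% of all genes in microglia-like, 0.579% in cMono-like, 0.624% in DC2-like and 1.15% in T-like cells. TMM scaling also gave 0 there. In microglia-like cells 6 members had an unadjusted p under 0.05 in the edgeR test, all with a negative term (16.2%, against 4.94% of all genes). cMono-like cells had 1 positive and 1 negative (2.7% each, against 5.39% and 3.27%). DC2-like cells had 2, with a positive term (5.41% against 7.15%). T-like cells had 1 positive and 1 negative (2.7% each, against 10.2% and 2.5%).

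Mice that were high in one class were high in most others. The Isg15 level in TAM-like cells was set against that in each other class over 8 mice, on the log2(CPM + 1) scale, and likewise for Irf7, making 12 relations tested by exact permutation with Benjamini-Hochberg adjustment. For Isg15, Pearson's r was 0.957 with cMono-like, 0.938 with DC2-like, 0.988 with T-like and 0.993 with NK-like cells, and Spearman's rho was 0.952, 1.0, 0.976 and 0.976 (exact permutation, adjusted p = 0.000298 for each r and between 0.000595 and 0.00274 for rho). Without WT mouse 1 and CaMKK2 KO mouse 4, the farthest from the median, r was 0.952, 0.939, 0.946 and 0.954. Within WT mice the lowest r was 0.997 and within CaMKK2 KO mice 0.945 for these 4 classes, over 4 mice each. WT mouse 1 was far below the other WT mice in TAM-like cells, so the r within WT rests largely on that mouse. It was not computed without it. The relation did not pass the test in microglia-like cells (r = 0.463, exact permutation adjusted p = 0.246) or in B-like cells (0.642, exact permutation adjusted p = 0.08, and 0.281 without the 2 mice). For Irf7, r was 0.977, 0.940, 0.965 and 0.964 in the same 4 classes (exact permutation adjusted p = 0.000992, 0.00102, 0.00279 and 0.000992), and 0.796, 0.806, 0.592 and 0.916 without the 2 mice, so that the relation with T-like cells rests in part on them. Its rho was 0.881, 0.905, 0.833 and 0.952 (exact permutation adjusted p = 0.0124, 0.00913, 0.0231 and 0.00274). In microglia-like cells r was 0.662 (exact permutation adjusted p = 0.0923), and in B-like cells 0.782 (exact permutation adjusted p = 0.0327), which fell to -0.04 without the 2 mice and whose rho of 0.595 did not pass (exact permutation adjusted p = 0.159). All classes of the 4 mice of a genotype come from the same channel and share its free RNA.

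**Figure D5:**
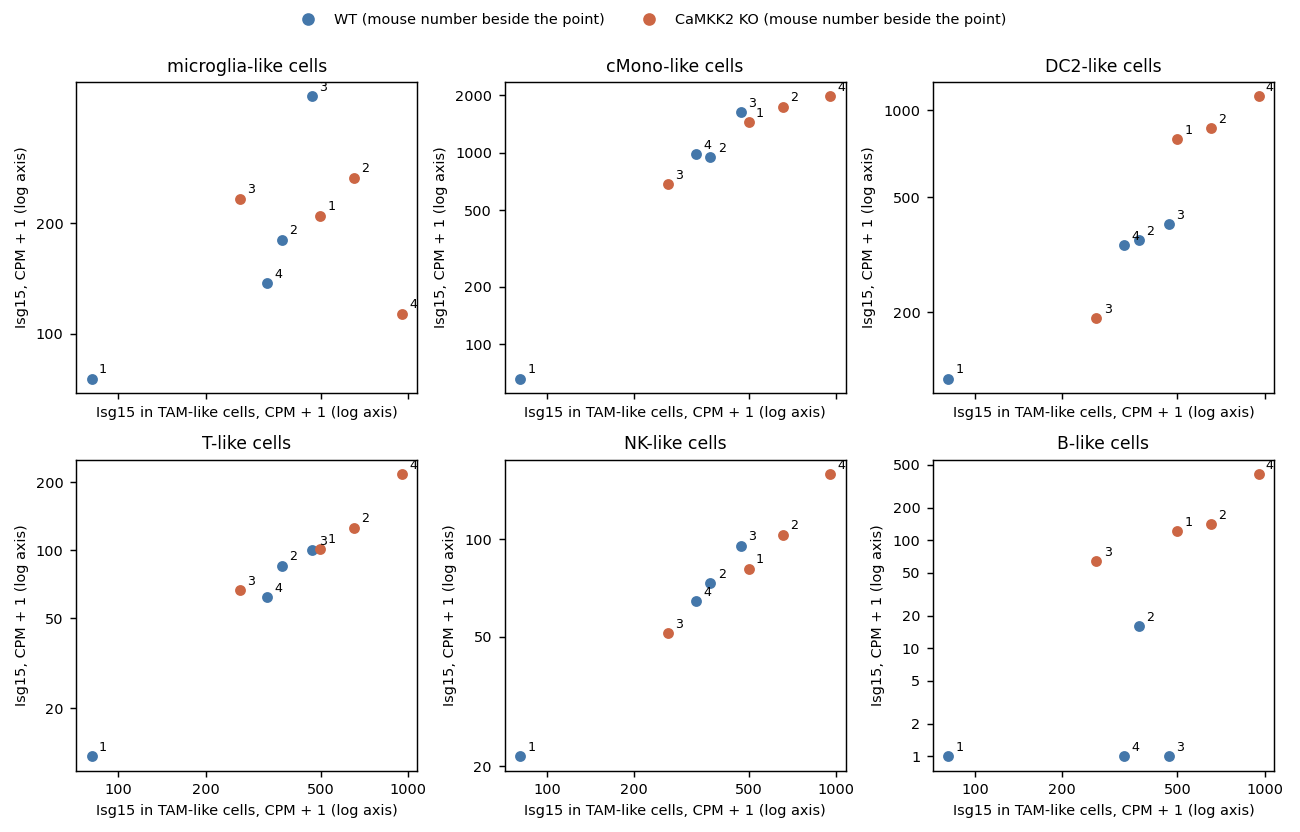
Isg15 level in each of 6 classes (vertical axis) against that in TAM-like cells (horizontal axis), both as CPM + 1 on log axes, 1 point per mouse (blue, WT; orange, CaMKK2 KO; the number is the mouse). Points rise together in cMono-like, DC2-like, T-like and NK-like cells, with WT mouse 1 at the lower left and CaMKK2 KO mouse 4 at the upper right, and scatter in microglia-like cells.

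In TAM-like and cMono-like cells the difference between mice was seen across the cells of the class and not in a few of them. After thinning each cell with at least 3000 UMIs to that number, the median TAM-like cell held 7, 25, 29 and 20 member UMIs in WT mice 1 to 4 and 31, 35, 22 and 49 in CaMKK2 KO mice 1 to 4. Cells with at least 10 different members made up 13.2%, 50.1%, 58.6% and 45.8% in WT and 55.0%, 65.8%, 42.4% and 82.5% in CaMKK2 KO mice. The top 10% of TAM-like cells held 22.1% to 36.8% of all member UMIs of a mouse. In cMono-like cells the median was 10, 41, 60 and 49 UMIs against 56, 61, 46 and 76.

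Other genes of the pathway were counted from lists of ligands, receptors, kinases and transcription factors, nucleic acid sensing, inhibitors and genes led by interferon gamma. Ifnb1, the first type I interferon made, was counted at 2, 1, 0 and 5 UMIs in WT mice 1 to 4 and at 31, 5, 13 and 1 in CaMKK2 KO mice 1 to 4, in 0 to 4 cells per mouse. A single cell of CaMKK2 KO mouse 1 held 21 of its 31. TAM-like cells held 51 of all 58 Ifnb1 UMIs, 4 of 8 in WT and 47 of 50 in CaMKK2 KO mice, too few and in too few cells to compare the genotypes. Ifna1, Ifna2, Ifna4 and Ifna5 were listed at 0 in every mouse, which at this depth does not show that they were absent. Ifng, the ligand of the related pathway, was 67.4, 231, 294 and 166 CPM in T-like cells of WT mice and 309, 398, 231 and 410 CPM in CaMKK2 KO mice, WT mouse 1 being again the lowest (0.71, SE 0.27, edgeR adjusted p = 0.195).

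No receptor, sensing gene or inhibitor of these lists was called between genotypes in any class, and 2 of the 8 kinases and transcription factors were, each in 1 class. Irf1 was higher in CaMKK2 KO microglia-like cells (1.25, edgeR adjusted p = 0.0234) and Irf8, needed for NK and dendritic cell maturation, in NK-like cells (0.50, edgeR adjusted p = 0.0293). Among the 10 genes led by interferon gamma, of which 9 were tested, Ciita, the master regulator of MHC class II genes, was called in TAM-like cells at 5.82, 36.8, 40.5 and 38.7 CPM against 189, 262, 170 and 282 CPM (2.89, SE 0.48, edgeR adjusted p = 0.0150). In cMono-like cells Ciita (2.36, edgeR adjusted p = 0.00151) and Serpina3g, an inhibitor of cathepsins (2.19, edgeR adjusted p = 0.0488), were called. Ciita did not overlap between genotypes in TAM-like cells, with WT mouse 1 included or left out. Called or not, the tested interferon gamma genes had positive median log2 fold changes: TAM-like 1.79 (9 genes), cMono-like 1.45 (9), DC2-like 1.18 (8), microglia-like 1.94 (5). The member medians there were 0.50, 0.30, 0.67 and 0.10. SEs of single list genes reached 0.86 in TAM-like, 0.93 in cMono-like, 0.83 in DC2-like and 0.87 in microglia-like cells. The lists were not tested against each other, and list medians without WT mouse 1 are not given here. In lymphocytes the list medians were 0.94 (B-like, 3 genes), 0.20 (T-like, 6) and 0.16 (NK-like, 6), against member medians of 1.71, 0.31 and 0.25. The T-like and NK-like gaps are smaller than the SEs of single list genes there (0.19 to 0.26 and 0.14 to 0.26). The B-like members passed a filter that a gene present in CaMKK2 KO cells alone can pass. No order between the lists is therefore read from any class.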

How the data were processed

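The authors aligned the reads to mm10 and deposited, per genotype, a matrix of UMI counts per gene and barcode and one of hashtag counts; the submitters' processing notes name Cell Ranger 4.0.0, STAR 2.7.5c, bcl2fastq 2.20 and Seurat. Barcodes were assigned to mice with HTODemux (Seurat 5.3.0, quantile 0.99). Barcodes with under 200 genes or outlying by 3 median absolute deviations, hashtag doublets and negatives, and Scrublet doublets (scanpy 1.11.5) were removed. Classes were gated by marker scores (minimum 0.25, margin 0.05). Sums of counts over the cells of a class in 1 mouse entered edgeR 4.0.16 (quasi-likelihood, R 4.3.3), keeping genes that reached 200 UMIs within that class, scaled by total UMIs, with Benjamini-Hochberg adjustment over all genes tested. Level and class by genotype terms were fitted over all 7 classes with the mouse as block. DESeq2 1.42.0, limma 3.58.1 and TMM scaling were alternatives. Relations between classes used exact permutation (scipy 1.17.1). Precision is limited by 11886048 to 20346223 UMIs and 12 to 557 cells per mouse and class, and shares cover counting error only. The scripts were tested on simulated counts.

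Named were Ifit1, Ifit3, Isg15, Irf7, Stat2 and Oas1a throughout, and members called in a class with their values. The members, lists and tests were chosen with earlier results of these data known. No column belonged to an unmapped sample (0).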

Additional observations from a re-analysis of the deposited data

Results flagged for a closer look

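In 8 of 52 groups of 4 mice tested, 1 mouse lay apart from the other 3 by a gap that, divided by the group's range, exceeded Dixon's 95% critical value; chance puts about 1 in 20 groups past it. In WT TAM-like cells WT mouse 1 was the low one for Ifit3 (0.932), for Stat2 (0.896) and for the mean of the members (0.889). In WT T-like cells it was the low one for Ifitm3 (0.879) and Stat2 (0.914), and in WT NK-like cells for Xaf1 (0.830). In B-like cells a high mouse stood apart, WT mouse 2 for Isg15 (1.0, the other 3 WT mice being at 0) and CaMKK2 KO mouse 4 for Slfn5 (0.921). The same WT mouse accounted for 6 of these, so they are not separate events.

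The genotype difference was larger in B-like than in TAM-like cells, by the class by genotype term, for Isg15 (3.89, log2), Slfn5 (2.71), Zbp1 (1.97) and Bst2 (1.66), and the term was negative in NK-like cells for Oasl2 (-2.22), which was lower in CaMKK2 KO NK-like cells and had a fold change of 0.11 (log2) in TAM-like cells. The B-like values rest on 14 to 87 cells per mouse.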

How the results depend on the processing

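No paired analysis was possible because mouse numbers are hashtags within a channel and link no WT mouse to a CaMKK2 KO mouse. The counts of members called between genotypes changed with the filter on low counts, with the mice included and with the tool. Without a filter beyond 1 UMI they were 1 in microglia-like, 1 in cMono-like, 12 in DC2-like, 6 in T-like, 11 in NK-like and 23 in B-like cells. At 50 UMIs they were 2 in T-like, 3 in NK-like and 13 in B-like cells. The member added in T-like and NK-like cells at 50 UMIs was Oasl2, whose lower levels in CaMKK2 KO mice are given above. DESeq2 gave 1 in cMono-like and 2 in DC2-like cells. The T-like count was 0 with TMM scaling, DESeq2, limma, doublets kept, classes from clusters and free RNA subtracted. With outlying cells kept the NK-like count was 5. Leaving out WT mouse 1 and CaMKK2 KO mouse 4 was a setting chosen after seeing the data. Outside microglia-like cells it takes out the lowest WT and highest CaMKK2 KO mouse for the member mean and so shrinks its difference by construction. Single genes can depart from this, since WT mouse 1 was not the lowest in T-like cells for Ifit1 or Ifit3. With both mice left out the counts were 2 in T-like and 1 in B-like cells. Fold changes then turned negative for Ifit1 (-0.14) and Ifit3 (-0.25) in TAM-like cells and Ifit3 (-0.0752) and Irf7 (-0.0100) in T-like cells. Fitting only B-like and TAM-like cells gave 11 members whose genotype difference differed. The count by level was 29 in microglia-like cells with TMM scaling and 9 in DC2-like cells with the CaMKK2 KO mice only. Leaving out 1 mouse at a time, calls between genotypes ranged from 0 to 1 in microglia-like, 0 to 17 in DC2-like, 0 to 2 in T-like, 2 to 6 in NK-like and 0 to 8 in B-like cells, and stayed at 0 in TAM-like and cMono-like cells. The class by genotype counts ranged from 0 to 4 in microglia-like, 0 to 1 in NK-like and 1 to 5 in B-like cells, and Ifit3 in T-like cells from -0.0797 (without CaMKK2 KO mouse 4) to 0.42. The filter on low counts was applied anew to the mice included, so a member could drop out of a count untested. Beyond that, the cause of these changes was not tested. Counts over all genes in the same settings are not given here, so a changed count is not a result particular to the members. TMM scaling moved the median of all genes by 0.11 (log2) between genotypes in microglia-like cells, and by -0.16 in DC2-like, -0.13 in T-like and -0.12 in NK-like cells in the class by genotype term.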
